A study of Mus musculus with 6 samples.

Results

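Satellite glia are the flat cells that wrap the cell bodies of sensory neurons in the dorsal root ganglion (DRG), and 9 genes known as their markers, Fabp7, Apoe, Kcnj10, Glul, Slc1a3, Cdh19, Sox10, S100b and Gja1, were followed here through 6 DRG culture libraries. They were taken by symbol from the 35976 genes counted in each library, each symbol matched 1 row, and all 9 were among the 18277 genes that passed the filter on low counts and were tested. The list was chosen by name as satellite glia markers, with the spread of their counts between replicate numbers and their change with treatment already known. Spread and change are therefore given as descriptions of these libraries. Lumbar ganglia of adult wild-type C57BL/6 mice of both sexes were dissociated with enzymes, passed through a strainer and plated on laminin and polylysine with nerve growth factor and glial cell line-derived neurotrophic factor. No sort for neurons or glia is given in the sources used here. Treatment began 24 h after plating and lasted 24 h, with HC-HA/PTX3 at 15 µg/mL in 1 group and vehicle in the other. HC-HA/PTX3 is a complex purified from human amniotic membrane, in which hyaluronic acid carries the heavy chain of an inter-α-trypsin inhibitor and is bound to pentraxin 3. Each group held 3 libraries, numbered 1 to 3 in the labels, with 42516054, 42617496 and 54117547 counts in vehicle and 37998071, 37434266 and 38420247 counts in HC-HA/PTX3. The labels do not say whether the replicates came from separate cultures or animals, so p-values measure only the spread between these samples. In the main fit that spread is what remains within replicate numbers, once the differences between numbers are fitted.

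Satellite glia descend from the neural crest and share the transcription factor Sox10 with Schwann cells. They clear potassium and glutamate from the narrow space around the neuron, pass ions and small molecules to one another through gap junctions, and supply lipids to the neurons they enclose.

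Kcnj10 and Fabp7 had the widest range of the 9 genes between replicates, and their promoters are shown with that of Apoe, because genes that move together were searched for shared letters in the bases before their start sites. RefSeq (build GRCm38.p6) gave 9 start sites for 7 of the 9 genes, and the window was the 250 bases upstream of each. Cdh19 and Sox10 are named only. On mm10, Kcnj10 lies at chr1:172341210-172374085, Glul at chr1:153899944-153909723 and Cdh19 at chr1:110888326-110977584. Fabp7 lies at chr10:57784881-57788450, Gja1 at chr10:56377330-56402513 and S100b at chr10:76253853-76261159. Apoe lies at chr7:19696109-19699188, and Sox10 and Slc1a3 at chr15:79154908-79165240 and chr15:8634124-8710764. The letters searched were ACAAAG and ACAATG, the core that SOX proteins recognise, on both strands, and neither overlaps the other in the windows printed. They occurred in 1 of the 9 windows, in Apoe, against 25.2% of 32851 windows of the same length across the genome. Capitals mark the matches, and the sequences run 5′ to 3′ on the strand of the gene. Apoe also had windows at chr7:19698399-19698648 and chr7:19698622-19698871, which held 0 matches and are not printed. The Kcnj10 window is chr1:172340960-172341209 on the plus strand and the Fabp7 window chr10:57784673-57784922 on the plus strand. The Apoe window printed is chr7:19699189-19699438 on the minus strand.
Kcnj10: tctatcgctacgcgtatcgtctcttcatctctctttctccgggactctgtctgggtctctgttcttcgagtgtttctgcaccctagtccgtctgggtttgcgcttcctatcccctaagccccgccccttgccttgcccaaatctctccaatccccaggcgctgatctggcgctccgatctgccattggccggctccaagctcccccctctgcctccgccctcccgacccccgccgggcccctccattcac
Fabp7: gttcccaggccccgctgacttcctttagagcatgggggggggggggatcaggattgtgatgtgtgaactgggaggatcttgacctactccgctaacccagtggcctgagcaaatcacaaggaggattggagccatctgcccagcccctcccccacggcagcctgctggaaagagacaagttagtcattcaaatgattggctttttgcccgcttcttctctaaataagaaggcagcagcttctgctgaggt
Apoe: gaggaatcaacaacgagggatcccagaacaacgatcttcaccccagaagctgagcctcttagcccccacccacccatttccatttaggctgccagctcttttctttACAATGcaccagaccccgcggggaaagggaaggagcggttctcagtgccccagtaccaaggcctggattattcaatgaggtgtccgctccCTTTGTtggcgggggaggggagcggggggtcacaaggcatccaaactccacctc
A match is a description of letters and not of a binding site, and windows without a match show only that these letters were not in them.

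In both groups the satellite glia genes differed far more between replicate numbers than between vehicle and HC-HA/PTX3 libraries of the same number. Of the 9 genes, 7 were highest in replicate 1 of both groups and 8 were lowest in replicate 3 of both groups, against 18.6% and 27.9% of the 18277 tested genes. The median range over the 3 replicates was 1.28 log2 CPM in vehicle and 1.86 in HC-HA/PTX3, where CPM is the count scaled to the library's TMM-normalized total, and over all tested genes it was 0.43 and 0.44. The median size of the difference between libraries of the same number was 0.20 log2 for the 9 genes and 0.22 for all tested genes. For 7 of the 9 genes the smaller of the 2 ranges exceeded the largest of the 3 same-number differences, as it did for 41.1% of tested genes. The exceptions were Glul and Gja1. Without replicate 3 the median range was 0.52 in vehicle and 0.73 in HC-HA/PTX3. Summed over the 9 genes, the level was 2009, 1168 and 653 CPM in vehicle replicates 1, 2 and 3 and 1878, 1207 and 669.6 CPM in the HC-HA/PTX3 replicates. In bulk RNA, fewer satellite glia and less of these transcripts in each cell cannot be told apart.

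**Figure D1:**
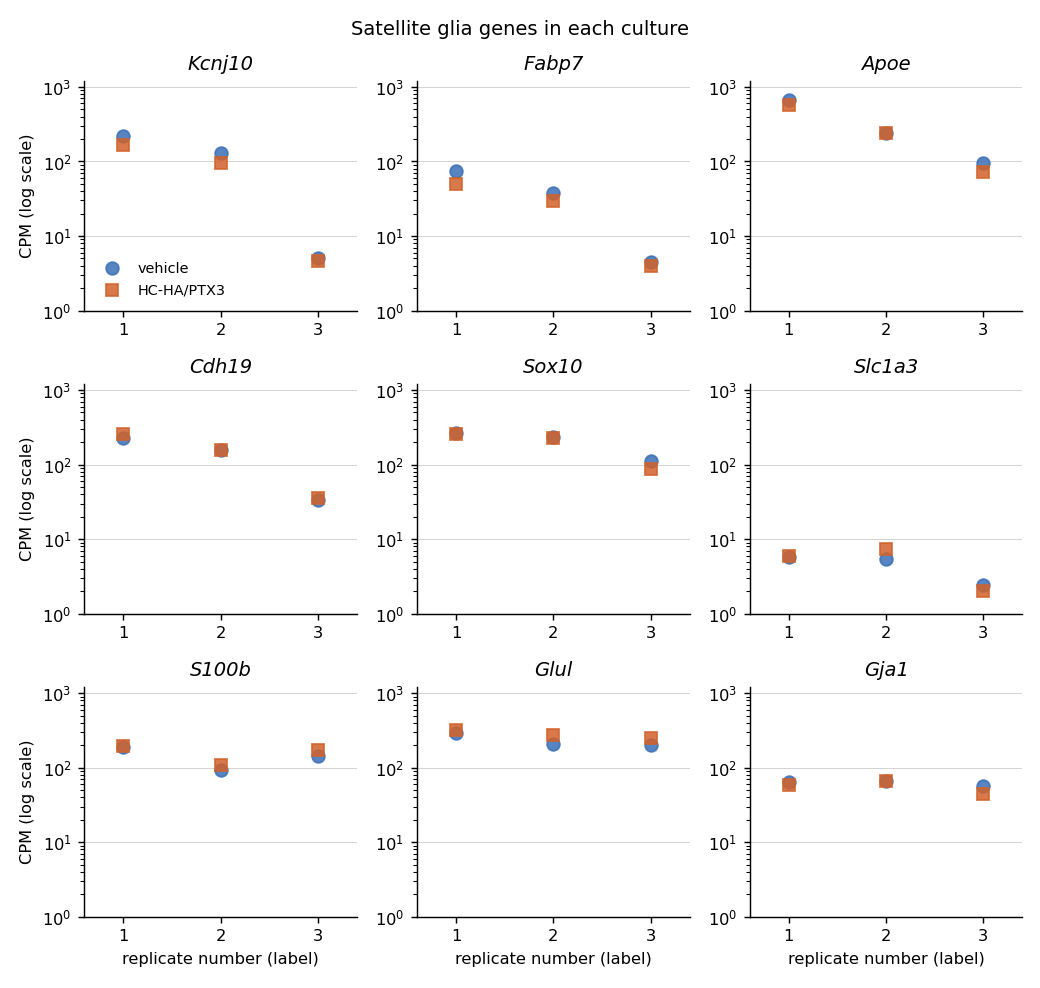
Level of each of the 9 satellite glia genes in the 6 libraries, in CPM on a log axis, by replicate number. Circles are vehicle and squares HC-HA/PTX3, with 1 point per library. Kcnj10, Fabp7, Apoe and Cdh19 lie lowest in replicate 3 of both groups, and circle and square of the same number lie close together.

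Satellite glia remove potassium through Kcnj10, an inwardly rectifying channel, and share it through Gja1, a connexin of gap junctions. Kcnj10 measured 218, 128 and 5.11 CPM in vehicle replicates 1, 2 and 3 and 168, 95.2 and 4.70 CPM in HC-HA/PTX3. Replicate 1 lay 42.6-fold above replicate 3 in vehicle and 35.8-fold in HC-HA/PTX3, and the groups overlapped. The values rest on counts from 8721 in vehicle replicate 1 to 185 in HC-HA/PTX3 replicate 3. Kcnj10 had the widest range of the 9 genes, at percentile 99.99 of tested genes in vehicle. Within the same number Kcnj10 was lower with HC-HA/PTX3 in each of the 3 pairs, by -0.37, -0.43 and -0.12 log2, and its fitted log2 fold change was -0.34 (SE 0.07; edgeR quasi-likelihood test, Benjamini-Hochberg adjusted p = 0.0108), inside the 0.5 needed for a call. Gja1 behaved differently, with 63.6, 65.3 and 56.5 CPM in vehicle and 58.0, 66.7 and 44.0 CPM in HC-HA/PTX3. Its range was 0.21 log2 in vehicle and 0.60 in HC-HA/PTX3, and the groups overlapped. The log2 fold change of Gja1 was -0.15 (SE 0.08; edgeR quasi-likelihood test, Benjamini-Hochberg adjusted p = 0.225).

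Fabp7, a fatty acid binding protein of immature and satellite glia, and Apoe, the apolipoprotein that carries glial lipid to neurons, followed the replicate order of Kcnj10. Fabp7 measured 74.0, 38.0 and 4.55 CPM in vehicle replicates 1, 2 and 3 and 49.7, 29.9 and 4.01 CPM in HC-HA/PTX3. The ratio of replicate 1 to replicate 3 was 16.2 in vehicle and 12.4 in HC-HA/PTX3. Each HC-HA/PTX3 library lay below the vehicle library of its number. The log2 fold change of Fabp7 was -0.40 (95% interval -0.60 to -0.19; edgeR quasi-likelihood test, Benjamini-Hochberg adjusted p = 0.0154). Apoe measured 672, 239 and 96.7 CPM in vehicle and 570.3, 240.4 and 73.4 CPM in HC-HA/PTX3. Replicate 2 of Apoe was the same in both groups to 0.01 log2, while replicates 1 and 3 differed by -0.24 and -0.40. Its log2 fold change was -0.21 (95% interval -0.38 to -0.03; edgeR quasi-likelihood test, Benjamini-Hochberg adjusted p = 0.0929).

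Glutamate taken up by glia is turned into glutamine by Glul, glutamine synthetase, after entry through transporters such as Slc1a3. Glul was the member in which treatment took the largest share of the variance. It measured 293, 206 and 201 CPM in vehicle replicates 1, 2 and 3 and 319, 273 and 249 CPM in HC-HA/PTX3. It was higher with HC-HA/PTX3 in each pair, by 0.12, 0.41 and 0.31 log2, although the groups overlapped. The log2 fold change of Glul was 0.28 (SE 0.07; 95% interval 0.13 to 0.43; edgeR quasi-likelihood test, Benjamini-Hochberg adjusted p = 0.0198). Replicate number took 62.5% and treatment 31.8% of its variance in log2 CPM over the 6 libraries. Exons of Glul share 116 bases with Teddm2 on the opposite strand and 93 bases with Mir8114 on the same strand. The strand setting of the counts is not given in the sources used here, so reads from these stretches cannot be told apart. Slc1a3 was the least abundant member, with 5.84, 5.42 and 2.45 CPM in vehicle and 6.01, 7.39 and 2.01 CPM in HC-HA/PTX3. These lay above the floor that a count of 0 allows, which was at most 0.0808 CPM in any library (3 counts, counting error only). Its same-number differences were 0.04, 0.44 and -0.28 log2, with no common sign, and its log2 fold change was 0.10 (SE 0.17; edgeR quasi-likelihood test, Benjamini-Hochberg adjusted p = 0.725).

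The glial regulator Sox10, the adhesion molecule Cdh19 and the calcium binding protein S100b are used as markers of both satellite glia and Schwann cells. Cdh19 measured 227, 159 and 33.6 CPM in vehicle replicates 1, 2 and 3 and 260.3, 157 and 35.3 CPM in HC-HA/PTX3. Replicate 1 stood 6.77-fold and 7.38-fold above replicate 3, whereas the fold of HC-HA/PTX3 over vehicle within numbers was 1.06 (95% interval 0.959 to 1.17; edgeR quasi-likelihood test, Benjamini-Hochberg adjusted p = 0.399). The smaller range of Cdh19 was 14.1 times its largest same-number difference, the highest ratio of the 9 genes. Sox10 measured 268, 233 and 111 CPM in vehicle and 254, 229 and 87.1 CPM in HC-HA/PTX3. Its range was narrower than that of Cdh19 and Kcnj10, 2.42-fold in vehicle and 2.91-fold in HC-HA/PTX3, and its log2 fold change was -0.15 (SE 0.07; edgeR quasi-likelihood test, Benjamini-Hochberg adjusted p = 0.191). S100b measured 188, 93.9 and 143 CPM in vehicle and 193, 108 and 170.5 CPM in HC-HA/PTX3. It was the only member that was lowest in replicate 2, in both groups, and replicate 3 stood between the others. Of a list of 15 neuron genes, 9 were also lowest in replicate 2 of both groups, against 17.6% of tested genes. The part of cells other than glia in the values of S100b was not tested. S100b is listed here as a satellite glia gene by name only. The log2 fold change of S100b was 0.17 (SE 0.07; edgeR quasi-likelihood test, Benjamini-Hochberg adjusted p = 0.106).

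**Figure D2:**
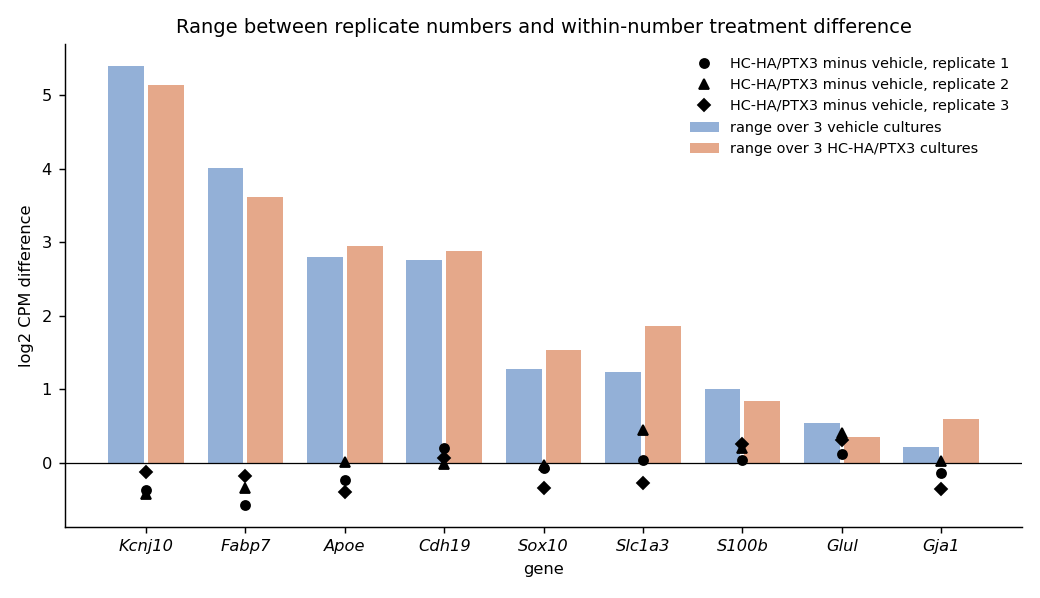
Range of log2 CPM of each satellite glia gene over the 3 vehicle libraries (blue bars) and the 3 HC-HA/PTX3 libraries (orange bars). Black points are HC-HA/PTX3 minus vehicle within replicates 1, 2 and 3. The range of Kcnj10 was 5.40 in vehicle and 5.15 in HC-HA/PTX3, and for Glul and Gja1 the points reach beyond the shorter bar.

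Because the 9 genes did not move by the same factor, their order of abundance depended on the replicate number. Per kb of exon and over all 6 libraries, the mean was 147.5 CPM for Apoe, 100.7 for S100b, 77.2 for Glul, 64.5 for Sox10, 34.0 for Cdh19, 26.7 for Fabp7, 19.1 for Kcnj10, 5.75 for Gja1 and 0.568 for Slc1a3. Apoe was the most abundant per kb in replicates 1 and 2 of both groups, with 314 and 112 CPM per kb in vehicle. In replicate 3 S100b led in both groups, with 96.2 CPM per kb in vehicle against 45.2 for Apoe, and Gja1 at 5.51 CPM per kb lay above Kcnj10 at 0.945 and Fabp7 at 3.64. Slc1a3 was last in each of the 6 libraries, and neighbours such as Sox10, Glul and S100b exchanged places between libraries. The ratio of Kcnj10 to Cdh19 was 0.958, 0.809 and 0.152 in vehicle replicates 1, 2 and 3 and 0.646, 0.607 and 0.133 in HC-HA/PTX3. The ratio of Apoe to Cdh19 was 2.96, 1.51 and 2.88 in vehicle and 2.19, 1.53 and 2.08 in HC-HA/PTX3, lowest in replicate 2 of both groups. The low level of replicate 3 was thus not shared in equal proportion, since Kcnj10 to Cdh19 was lowest there and Apoe to Cdh19 was not.

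Over the whole table, 0 of the 9 satellite glia genes were called between HC-HA/PTX3 and vehicle at an adjusted p under 0.05 with an absolute log2 fold change over 0.5, where 1591 of 18277 genes, 8.70%, were called, 5.38% lower and 3.32% higher (edgeR quasi-likelihood test with a block for replicate number, Benjamini-Hochberg adjustment). DESeq2, limma-voom and limma after ComBat-seq also called 0 of the 9. At an unadjusted p under 0.05 there were 5 of the 9, and 6068 of the 18277 tested genes, and on the adjusted p alone there were 3, Fabp7 and Kcnj10 lower and Glul higher, against 19.2% of tested genes, 11.5% lower and 7.67% higher. Without the block 0 of the 18277 genes were called and 0 of the 9 reached an unadjusted p under 0.05. Without the pair numbered 2 the adjusted p of Fabp7, Kcnj10 and Glul was 0.0706, 0.109 and 0.166, and without the pair numbered 1 it was 0.220, 0.0866 and 0.0168 (edgeR quasi-likelihood test, Benjamini-Hochberg). Over all alternatives it ran from 0.00141 to 0.996 for Fabp7, 0.000363 to 0.986 for Kcnj10 and 0.00124 to 0.907 for Glul, the highest values coming from fits without the block. Fabp7, Kcnj10 and Sox10 were lower in all 3 pairs and Glul and S100b higher, and 28.7% and 25.2% of tested genes were lower and higher in all pairs. The groups did not separate for any of the 9 genes, while they did for 18.0% of tested genes. The median log2 fold change was -0.15 for the 9 genes and -0.01 for all tested genes. Replicate number took a median of 97.4% of the variance in log2 CPM of the 9 genes and treatment 1.23%, against 59.0% and 17.7% over all tested genes.

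Of 12754 other genes searched, the 10 whose log2 CPM over the 6 libraries was most like the mean profile of the satellite glia genes included Gjc3, Sox5, Art3, Ctso, Fxyd1, Gprc5b and Cdh20. Pearson's r ran from 0.999 for Gjc3 to 0.996 for Cdh20 (n = 6 libraries, a description, with replicate and treatment shared by all points). Gjc3, a glial connexin, measured 24.5, 13.4 and 3.68 CPM in vehicle replicates 1, 2 and 3 and 19.9, 13.4 and 3.22 CPM in HC-HA/PTX3. It was lowest in replicate 3 of both groups, as the satellite glia genes mostly were. The opposite order was found most closely for Lonp1, Hmox1 and Hspa9, of which Lonp1 and Hspa9 act in mitochondria and Hmox1 degrades heme. Hmox1 measured 39.1, 60.0 and 158 CPM in vehicle and 43.3, 51.9 and 190.2 CPM in HC-HA/PTX3, highest in replicate 3 of both groups. Among the members themselves, r with the mean of the other 8 was 0.992 for Cdh19, 0.991 for Fabp7, 0.982 for Kcnj10, 0.980 for Sox10, 0.958 for Apoe and 0.921 for Slc1a3. It was 0.728 for Gja1, 0.615 for Glul and -0.01 for S100b.

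Other glial markers were also mostly lowest in replicate 3. A list of 18 other peripheral glia genes summed to 1627, 1163 and 305 CPM in vehicle replicates 1, 2 and 3 and 1528, 1082 and 280.4 CPM in HC-HA/PTX3, and 15 of the 18 were lowest in replicate 3 and 13 highest in replicate 1 of both groups. No gene of the list was at 0 in any library. With treatment 4 of the 18 fell and 0 rose in the fit with the block, where 5.38% of tested genes fell and 3.32% rose, and the median log2 fold change was -0.20. Gfap, the intermediate filament of reactive glia, fell by 0.72 log2 (SE 0.15), from 10.2, 12.0 and 0.429 CPM to 6.47, 7.25 and 0.203 CPM (edgeR quasi-likelihood test, Benjamini-Hochberg adjusted p = 0.00816). Without pair 1 or pair 2 Gfap was not called, although its log2 fold change was -0.77 and -0.73. Atp1b2, the glial sodium pump subunit, fell by 0.67 log2 (SE 0.17), from 99.9, 41.3 and 3.52 CPM to 47.1, 25.5 and 3.89 CPM, and was not called without pair 1, at -0.35, without pair 2, at -0.64, or with DESeq2, at -0.56. Fbln5 and Metrn fell by 0.61 and 0.59 log2, and neither was called without pair 3, where the log2 fold change was -0.47 and -0.38, nor Metrn without pair 2, at -0.64. The part of these genes in the values of the satellite glia genes was not tested.

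**Figure D3:**
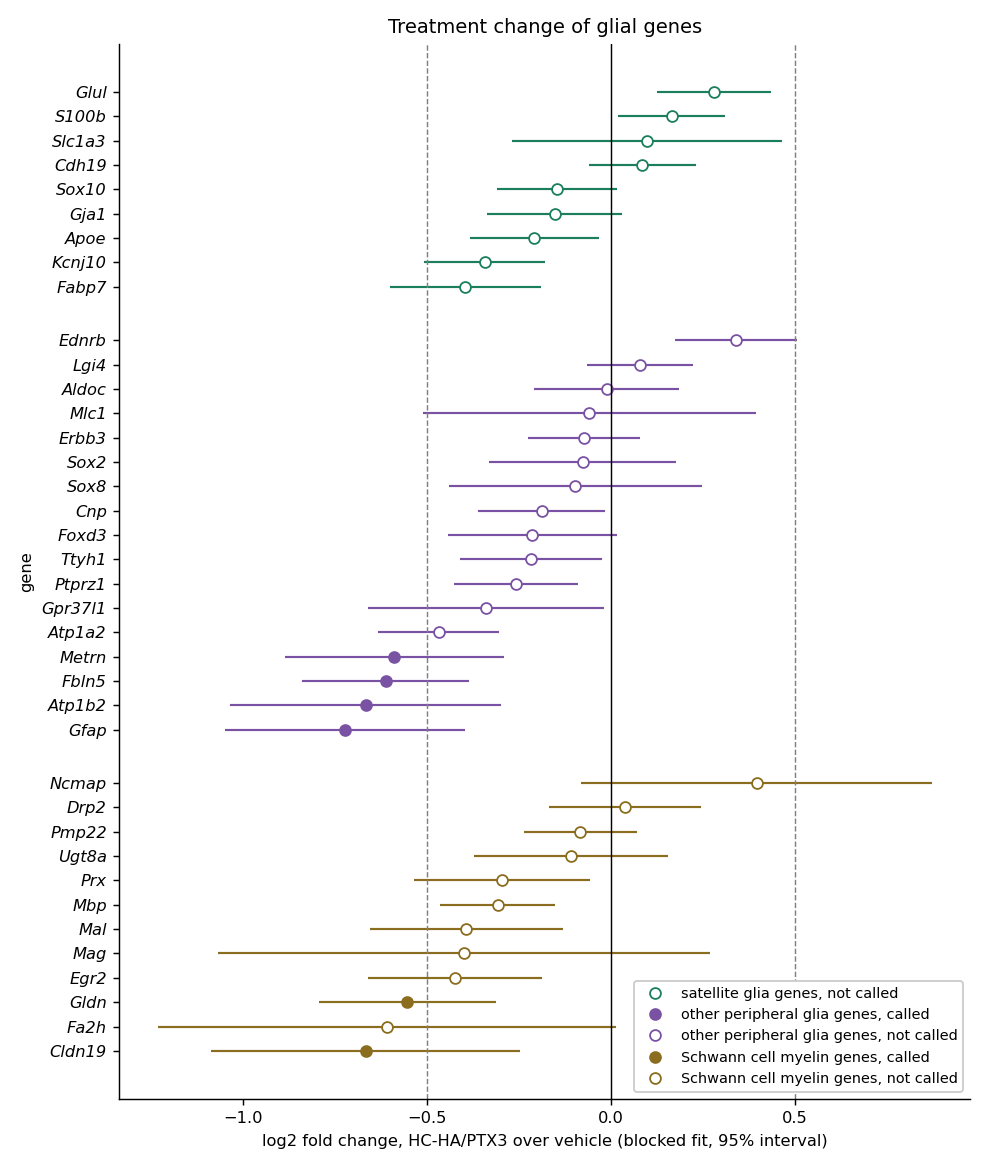
Log2 fold change of HC-HA/PTX3 over vehicle, fitted with replicate number as a block, for the 9 satellite glia genes and for genes of the other peripheral glia and Schwann cell myelin lists, with 95% intervals, filled points for called genes and dashed lines at an absolute log2 fold change of 0.5. The 9 satellite glia points lie between -0.40 and 0.28, inside the dashed lines.

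Schwann cells, which share Sox10, Cdh19 and S100b with satellite glia, were followed through 13 myelin genes, which summed to 1352, 977 and 714 CPM in vehicle replicates 1, 2 and 3 and 1157, 814 and 639.5 CPM in HC-HA/PTX3. No gene was at 0 in any library, Pmp22 was the most abundant at 196 CPM per kb, and 10 of the 13 were lowest in replicate 3 of both groups. With treatment 3 of the 13 fell and 0 rose, beside 5.38% and 3.32% of tested genes, with a median log2 fold change of -0.39. Gldn and Cldn19, among them, fell by 0.55 and 0.67 log2, and Gldn was not called without pair 3, at -0.35, nor Cldn19 without pair 1, 2 or 3, although its log2 fold change was -0.62, -0.78 and -0.59. Fibroblast genes, at 2721, 2464 and 943 CPM summed in vehicle and 1576, 1621 and 322 CPM in HC-HA/PTX3, were also lowest in replicate 3. Of these genes 5 of 8 fell, beside the same 5.38%, Col1a1 by 1.62 log2 (SE 0.17), with Col1a2, Col3a1, Fbln1 and Postn. Fbln1 was not called without pair 1, at -0.96, or pair 2, at -1.07, nor Postn without pair 3, at -0.40. Of 32 genes called over the lists, 13 were also called with each pair left out in turn, 9 of the 10 proliferation genes, Col1a1, Col1a2, Col3a1 and Acta2, and 0 of the 7 glial and Schwann cell genes. Besides Atp1b2, DESeq2 did not call Acta2, Cldn19, Postn or Tyrobp, although it gave log2 fold changes of -1.04, -0.67, -0.71 and -0.67. The 10 proliferation genes all fell, from Ccna2 at -1.75 to Pcna at -0.54, and summed to 874, 661 and 343 CPM in vehicle and 319, 355 and 93.3 CPM in HC-HA/PTX3. Col1a1 at 53.4 and Pcna at 22.6 CPM per kb were the most abundant of these lists, and no gene of either was at 0. Unlike these lists, 15 neuron genes summed to 13065, 10206 and 11499 CPM in vehicle and 13309, 10808 and 13063 CPM in HC-HA/PTX3, and 9 of the 15 were lowest in replicate 2 of both groups. Of the neuron genes 0 were called, and Tubb3 led them at 693 CPM per kb. Endothelial genes were led by Cdh5 at 21.3 CPM per kb, with 0 of 8 called. The parts of Schwann cells, fibroblasts and dividing cells in the values of the satellite glia genes were not tested.

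**Figure D4:**
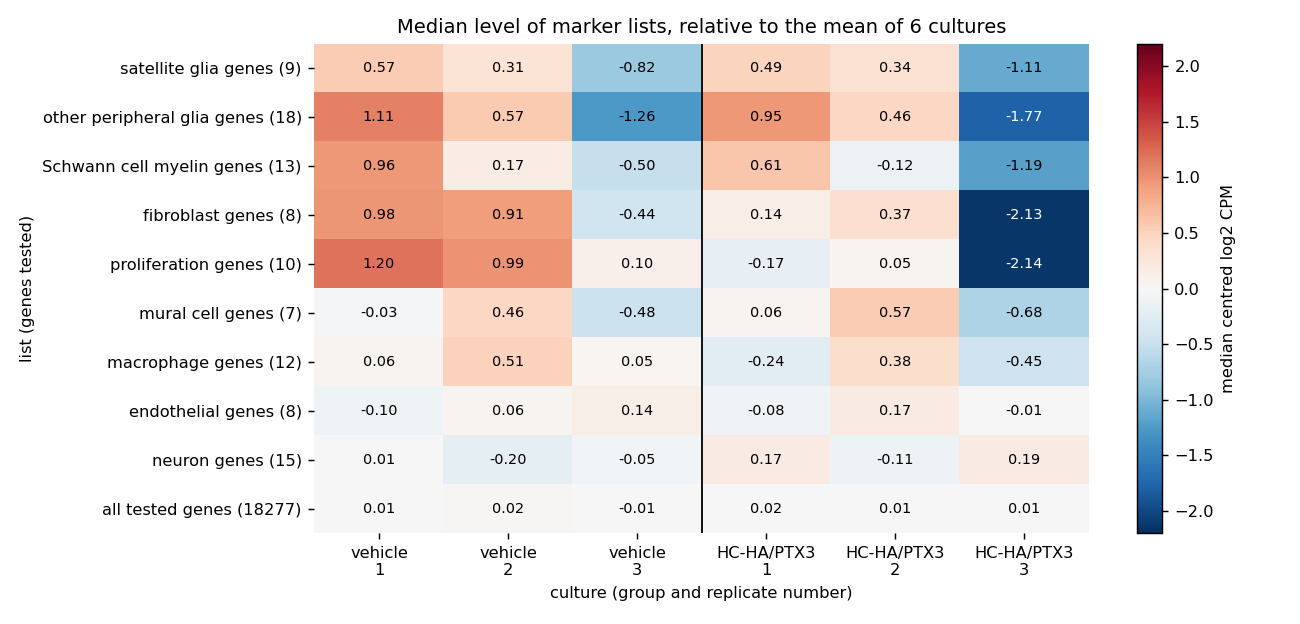
Median log2 CPM of each marker list in each library, relative to each gene's mean over the 6 libraries. Red is above and blue below that mean, and the number of genes is in brackets. Satellite glia genes stood at -0.82 in vehicle replicate 3 and -1.11 in HC-HA/PTX3 replicate 3, and neuron genes between -0.20 and 0.19 in the 6 libraries.

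Other genes of the members' pathways were followed as lists, beside the 8.70% called over all tested genes. Beside Slc1a3 and Glul, 2 of 9 tested genes of glutamate uptake and recycling fell, the transporters Slc1a1 (-0.59, SE 0.16) and Slc1a2 (-0.86, SE 0.18), and 0 rose. Slc1a2 measured 3.85, 2.79 and 2.73 CPM in vehicle replicates 1, 2 and 3 and 2.37, 1.24 and 1.63 CPM in HC-HA/PTX3, so that the groups did not overlap, unlike those of Slc1a3. Beside Kcnj10, 2 of 9 tested genes of potassium buffering fell, Kcnj16, whose product pairs with that of Kcnj10 (-0.61, SE 0.17), and the water channel Aqp4 (-1.48, SE 0.35). Kcnj16 measured 8.22, 5.68 and 0.643 CPM in vehicle and 4.77, 3.96 and 0.508 CPM in HC-HA/PTX3, and was lowest in replicate 3 of both groups as Kcnj10 was. Kcnj16, Aqp4 and Slc1a1 were not called without pair 1 or without pair 2, at log2 fold changes of -0.45 and -0.66 for Kcnj16, -1.80 and -1.10 for Aqp4 and -0.64 and -0.52 for Slc1a1. Slc1a2 was not called without pair 2, at -0.73. DESeq2 did not call Kcnj16, at -0.59, or Slc1a1, at -0.60, and gave Aqp4 no adjusted p. Aqp4 also did not pass the filter of at least 10 counts in every library, so its change rests in part on low counts. Beside Gja1, 0 of 11 tested connexins and pannexins were called in the main fit and 1 with ComBat-seq, with Gjb1 the most abundant at 8.82 CPM per kb. Beside Fabp7 and Apoe, 0 of 12 tested lipid carrier genes were called in the main fit, but 1 without pair 2 and 1 with the filter of at least 1 count. Clu was the most abundant at 50.3 CPM per kb, and the list median was -0.03. Beside Sox10, 0 of 13 tested regulators of neural crest and glia were called in the main fit, but 1 without pair 1, 2 without pair 2 and 2 with the filter of at least 1 count. Their median was -0.19, and Nrg1 was the most abundant at 16.4 CPM per kb. Over all genes, 878 of 18510 were called without pair 1 and 1571 of 18479 without pair 2. The filter of at least 1 count gave 2006 of 30347, and ComBat-seq 2127 of 18277. Beside S100b, 1 of 8 S100 and RAGE genes fell, S100a4, by 0.77 log2 (SE 0.15), with -0.496, inside the threshold of 0.5, without pair 3. All 8 were lowest in replicate 3 of both groups, where S100b was not.

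Macrophage and mural cell genes mark other cells of the ganglion, and in both groups their summed level was highest in replicate 2. Macrophage genes summed to 97.9, 128 and 109 CPM in vehicle replicates 1, 2 and 3 and 90.9, 129 and 78.7 CPM in HC-HA/PTX3, and 3 of 12 fell, beside 5.38% of tested genes (C1qa, C1qb and Tyrobp). C1qa and C1qb were called without pair 2 but not without pair 1, at -0.75 and -0.92, or pair 3, at -0.41 and -0.48, and Tyrobp was not called without pair 1, 2 or 3, at -0.66, -0.78 and -0.55. Of 7 mural cell genes Acta2 fell by 1.03 log2 and Abcc9 rose by 0.57 (not called without pair 1, at 0.52, or pair 3, at 0.42), 5 of the 7 were lowest in replicate 3 of both groups, and the list summed to 450.3, 550.4 and 397 CPM in vehicle and 451, 535 and 285 CPM in HC-HA/PTX3.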

How the data were processed

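Ribosome-depleted total RNA had been sequenced in 6 libraries as paired reads. The authors mapped them to mm10, filtered out ribosomal reads and summed the rest by gene (featureCounts of Subread); the submitters' processing notes and the methods name HISAT2, and the file headers name RNA STAR. The deposited values are raw counts per gene, not normalized, with 0 rows that name no gene. Counts were tested in R 4.3.3 with edgeR 4.0.16 (TMM scaling, filterByExpr, glmQLFit and glmQLFTest) on all 18277 genes that passed the filter, with replicate number as a block and treatment, and p-values were adjusted by Benjamini-Hochberg. A call needed an adjusted p under 0.05 and a log2 fold change beyond 0.5 in either direction. The study's methods fit batch and condition together, and the labels give no batch. The replicate numbers were taken to pair the samples because deviations from the group means correlated at 0.631, 0.536 and 0.774 between same-numbered libraries, against -0.61 to 0.148 between others. Deviations from a group mean cancel within the group, so the values for others are not independent of those for same numbers. Log2 CPM used a prior count of 2. Library pairs of a group differed beyond sampling noise. The procedure was tested on simulated data whose means came from a fit of replicate number, so pairing by number was built in. The fit with the block recovered 93 of 100 larger and 68 of 100 smaller planted changes, both beyond the threshold of 0.5. Without the block 55 and 4 were recovered. Changes inside the threshold were not planted. Alternatives used DESeq2 1.42.0, limma 3.58.1 and sva 3.50.0. Gene positions and exon lengths came from GENCODE (mm10), in which all 168 listed genes were found, and promoters from RefSeq. The members and the 14 other lists were chosen with earlier results of these data known. Some listed genes are not reported here by name. The genes named are drawn from the members, the called genes of the lists, the most abundant gene per kb of lists without a call, and the 10 most like and 3 least like the members' mean profile; most abundant genes of the other lists are given as well. The 10 min arm was not analysed here.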

Additional observations from a re-analysis of the deposited data

How the results depend on the processing

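Leaving out the replicate block took the genes called from 1591 to 0 (edgeR, smallest adjusted p 0.0581, 2089 genes at an unadjusted p under 0.05), and the called other peripheral glia and Schwann cell myelin genes to 0. Without the fold threshold 3505 genes, 3 satellite glia genes, 7 other peripheral glia genes and 6 Schwann cell myelin genes passed. Leaving out replicates, in pairs or as single libraries, gave 0 to 1571 called genes, 0 to 3 other peripheral glia genes and 0 to 3 Schwann cell myelin genes, with 0 satellite glia genes called throughout. A single library left out was fitted without the block, and those fits called 0 genes. Over the same settings the median satellite glia log2 fold change ran from -0.36 to 0.40. With only pairs left out and the block kept, this median ran from -0.21 to -0.03. With pairs left out, the median range ran from 0.52 to 1.28 in vehicle and from 0.73 to 1.71 in HC-HA/PTX3, and the share of variance by replicate number from 79.4% to 98.0%. The lowest ranges and share came without replicate 3. With pairs or single libraries left out, the log2 fold change ran from -1.17 to 0.40 for Fabp7, -1.08 to 0.81 for Apoe, -1.21 to 0.43 for Kcnj10, -0.19 to 0.56 for Slc1a3, -0.52 to 0.66 for Cdh19, -0.40 to 0.25 for Sox10, -0.0777 to 0.40 for S100b and -0.28 to 0.0155 for Gja1, each with a change of sign. With only pairs left out and the block kept, it ran from -0.45 to -0.27 for Fabp7, -0.32 to -0.10 for Apoe and -0.39 to -0.29 for Kcnj10. In the same fits it ran from 0.03 to 0.13 for Cdh19, -0.21 to -0.03 for Sox10 and 0.14 to 0.23 for S100b. For Slc1a3 it ran from -0.11 to 0.26, with a change of sign. Of 153 member results under the alternatives, 136 kept their direction and side of the call and 17 changed sign. These sign changes arose when libraries were left out, mostly single ones in unbalanced fits, and Glul had none; the cause was not tested. Scaling by upper quartile or raw library size, DESeq2, limma-voom, ComBat-seq and other count filters changed no member's direction. The main fit called 984 genes lower and 607 higher, DESeq2 853 and 373, the fit without replicate 1 630.0 and 248, and ComBat-seq with limma 1115 and 1012. The alternatives for the share of variance and for lists other than satellite glia were chosen after seeing the data.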
